A study of Arabidopsis thaliana with 305 samples.

Results

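The comparison followed here asks what loss of the ADR1 family of helper NLRs did to the leaf transcripts of Arabidopsis thaliana 0.5 h after infiltration with bacteria that carried an empty vector (EV) and therefore no added effector. All replicates of that time and strain were taken, 12 of the 156 replicates of the study, which together hold 24 of its 305 libraries. Leaves labelled adr1 triple, a mutant in ADR1, ADR1-L1 and ADR1-L2, and helperless, a mutant in the same genes and in NRG1.1 and NRG1.2 (herlperless in the sample labels), were set against leaves of Col-0, the wild-type accession, and of nrg1.1 nrg1.2, a mutant in both NRG1 genes. Each genotype gave 3 replicates, so that 6 replicates without the ADR1 family stood against 6 with it, and each side held 3 replicates with and 3 without the NRG1 genes. No treatment other than EV and no transgene is given for these groups, and the labels name no mutant alleles. The plants were 6 weeks old and were infiltrated by hand, per the labels' protocols. By the series' design the bacterium was Pf0, a Pseudomonas fluorescens strain used to deliver effectors, whereas the protocol names only Pseudomonas syringae. Nothing states that replicates came from separate plants, so the p-values below measure the spread between these samples, which may be technical.

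NLRs are the intracellular receptors through which plants detect effectors, the proteins that pathogens inject into host cells. Helper NLRs of the ADR1 and NRG1 families act downstream of many sensor NLRs: ADR1 proteins work with EDS1 and PAD4, and NRG1 proteins with EDS1 and SAG101, and active helpers let calcium into the cell. The ADR1 branch is also known for feeding salicylic acid synthesis and for a part in the response to conserved bacterial molecules.

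The 24 libraries held 4292411 to 8338763 counts, and the 12 replicates, in which libraries with the same group and replicate number were summed, 9525582 to 16467143. The genotype labels were checked through a ratio of a pair of mutated genes. ADR1-L1 counts were 170.84 to 557.73 times those of ADR1-L2 in the 12 libraries labelled adr1 triple or helperless, against 1.57 to 2.92 in the 12 labelled Col-0 or nrg1.1 nrg1.2. Each genotype also has library letters of its own in the labels, whose meaning is not given, so genotype and letter cannot be told apart. Replicates with the same number deviated together from their group means in all 4 genotypes (correlations of 0.41 to 0.7 over 18 pairs, against -0.45 to -0.12 over 36 pairs with different numbers). Deviations within a group cancel out, so positive correlations for the same number by themselves make those for different numbers negative. Because replicates with the same number deviated together, results are given without and, where it changes a call, with the replicate number as a block. Levels are CPM, counts relative to the TMM-scaled total of the library, changes are log2 fold changes ± SE of adr1 triple and helperless over Col-0 and nrg1.1 nrg1.2, and passing means an adjusted p (Benjamini-Hochberg, over all genes tested) under 0.05 in edgeR's quasi-likelihood test.

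Transcripts of the mutated family stood far apart, and not all in the direction of loss. ADR1 (AT1G33560), the helper that names the family, had 765, 1376 and 1008 CPM in adr1 triple replicates 1, 2 and 3 and 749, 1028 and 1164 CPM in helperless, against 12.4, 10.5 and 5.96 CPM in Col-0 and 12.3, 14.2 and 13.2 CPM in nrg1.1 nrg1.2. Every mutant replicate was above every replicate with the family intact. ADR1 rose by 6.49 ± 0.26 on the log2 scale (edgeR adjusted p = 7.5e-08, n = 6 against 6), so counts over this gene do not show the loss that the label states.

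ADR1-L1 (AT4G33300), a further member of the family, was also higher in the mutants, with 3851, 6102 and 4412 CPM in adr1 triple and 3689, 4872 and 5466 CPM in helperless, against 258, 262 and 254 CPM in Col-0 and 282, 265 and 224 CPM in nrg1.1 nrg1.2. The groups did not overlap, and the rise was 4.20 ± 0.16 (edgeR adjusted p = 6.4e-08). ADR1-L2 (AT5G04720) was the family member that fell. It had 17.7, 11.9 and 12 CPM in adr1 triple and 19.9, 13.4 and 12 CPM in helperless, against 145, 148 and 94.3 CPM in Col-0 and 138, 151 and 121 CPM in nrg1.1 nrg1.2. Again no replicate crossed over, and the change was -3.20 ± 0.18 (edgeR adjusted p = 2.3e-06). Counts per gene do not show which part of a gene the reads came from or whether a protein is made, so transcript levels of ADR1 and ADR1-L1 check the labels only through their difference between groups.

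Neither NRG1 gene passed. NRG1.1 had 96.6 to 200 CPM over the 6 adr1 triple and helperless replicates, against 123 to 217 CPM in Col-0 and nrg1.1 nrg1.2, a change of -0.21 ± 0.22 (edgeR adjusted p = 0.999). NRG1.2 stood at -0.65 ± 0.26 (edgeR adjusted p = 0.999), with 4.51 to 16.0 CPM against 11.0 to 19.0 CPM. NRG1.1 counts were not low in the leaves labelled nrg1.1 nrg1.2 (133, 217 and 123 CPM) beside Col-0 (133, 205 and 159 CPM), so the NRG1 transcripts do not check that label.

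**Figure D1:**
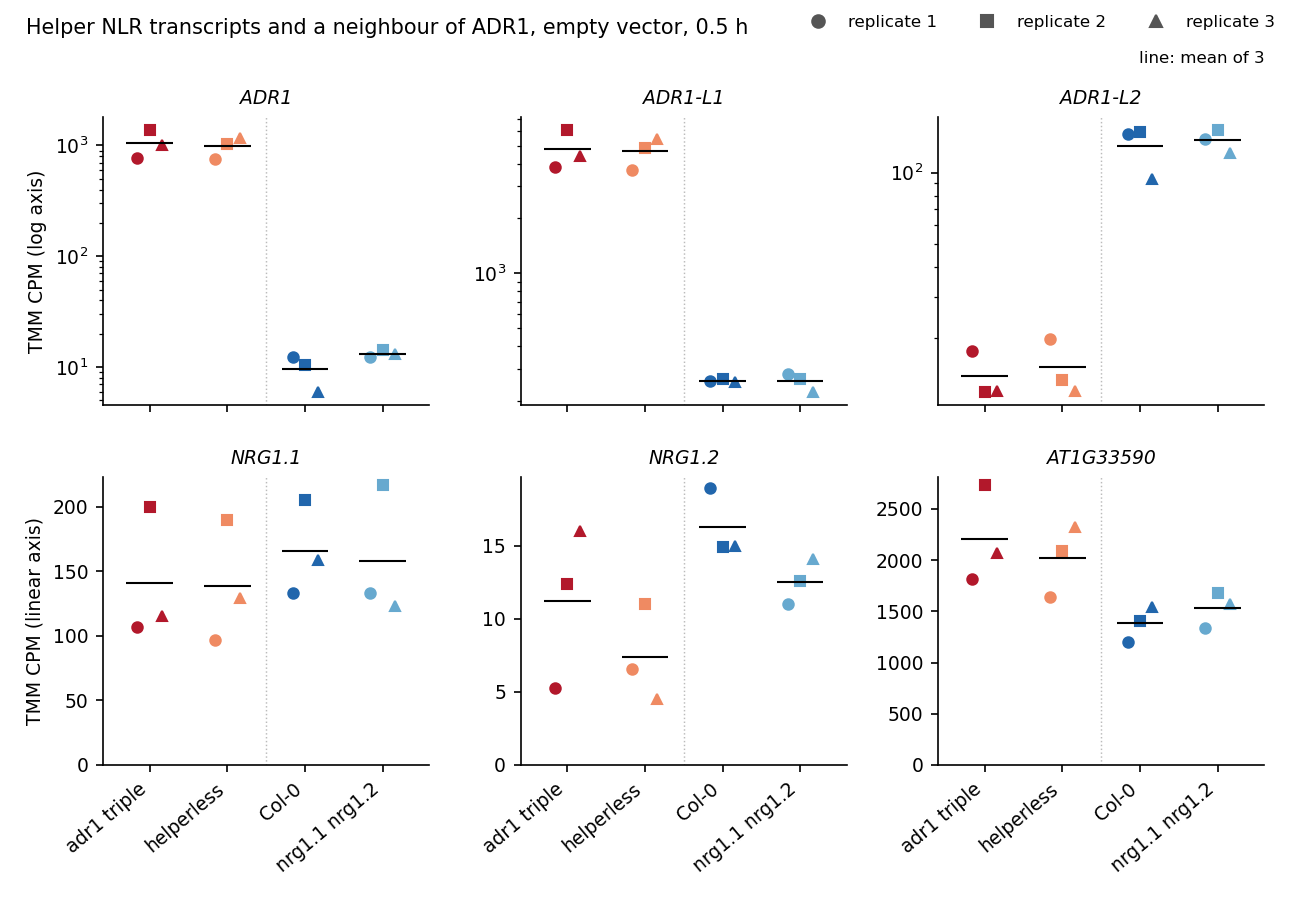
TMM CPM of the 5 helper NLR genes and of AT1G33590, next to ADR1 in the table, in each EV replicate at 0.5 h (upper row on log axes, lower row on linear axes; symbols give the replicate number and lines the mean of 3). ADR1 and ADR1-L1 lie higher and ADR1-L2 lower in all 6 adr1 triple and helperless replicates than in any Col-0 or nrg1.1 nrg1.2 replicate, while the NRG1 genes overlap.

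The fourth gene that passed lies beside ADR1-L1. AT4G33290, annotated as an F-box protein gene, had 4.86, 19.1 and 7.94 CPM in adr1 triple and 7.29, 14.2 and 4.82 CPM in helperless, against 0.0835, 0.25 and 0.434 CPM in Col-0 and 0, 0.0863 and 0 CPM in nrg1.1 nrg1.2. In reads this was 715 counts over the 6 mutant replicates against 10 over the others, a rise of 6.02 ± 0.59 (edgeR adjusted p = 0.00116). Its annotated span overlaps that of ADR1-L1 on the opposite strand, and since no strand setting of the counting is given, reads of both genes cannot be told apart. The next gene along, AT4G33280, annotated as a B3-type transcription factor gene, had 35 counts against 1 and fell under the filter on low counts.

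Other genes near the mutated loci did not pass. Among the 10 genes in the table on either side of each locus, 12 were tested around ADR1, 12 around ADR1-L1 and 13 around ADR1-L2, and AT4G33290 was the only one to pass. AT1G33590, a leucine-rich repeat protein gene next to ADR1, had 1816, 2735 and 2074 CPM in adr1 triple and 1643, 2089 and 2324 CPM in helperless, against 1204, 1408 and 1542 CPM in Col-0 and 1341, 1684 and 1570 CPM in nrg1.1 nrg1.2. It was higher in 6 of 6 pairs with the same replicate number but at 0.54 ± 0.14 did not pass (edgeR adjusted p = 0.999, and 0.088 with the replicate block). The median change of the genes tested around ADR1, ADR1-L1 and ADR1-L2 was 0.11, 0.13 and 0.03, beside 0.01 over all genes tested.

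Across the transcriptome few other genes passed at 0.5 h. Of 17001 genes tested, 4 passed (0.0235%), the 3 family members and AT4G33290, with 3 higher (0.0176%) and 1 lower (0.00588%). All 4 passed in every fit that left out 1 replicate, in DESeq2 and with the replicate block. The smallest adjusted p among the other genes was 0.16, and 606 genes (3.56%) had an unadjusted p under 0.05, 306 higher (1.8%) and 300 lower (1.76%). With the replicate block, 2069 genes (12.2%) had such a p. The middle part of all changes, between the 25th and 75th percentile, ran from -0.10 to 0.13, and the median SE of a gene was 0.18. In 38 genes (0.224%) the 6 and 6 replicates did not overlap, 23 of them higher (0.135%) and 15 lower (0.0882%). Most of these did not pass without the block. This number was not compared with that under shuffled labels, so a lack of overlap describes the values of a gene and is not a test.

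With the replicate number as a block 12 genes passed (0.0706%), 5 higher (0.0294%) and 7 lower (0.0412%). The 4 genes above kept their place, and the 8 that joined them, named here after their values were seen, were PR2, CRK7, CRK13, CML41, BRL3 and SHL1 on the lower side and AT5G56240 and AT1G35420 on the higher side. PR2, CRK7, BRL3, SHL1 and AT5G56240 also passed in DESeq2 without the block. Each of the 8 moved the same way in 6 of 6 pairs of mutant and intact leaves with the same replicate number and NRG1 status. The block selects for such agreement, so it adds no support of its own. The share of all genes with 6 of 6 such pairs was not counted. Leaving out 1 replicate under the block gave 8 to 17 genes in 10 of 12 fits, but 59 without adr1 triple replicate 2 and 31 without Col-0 replicate 2, so the length of this list rests on those replicates.

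**Figure D2:**
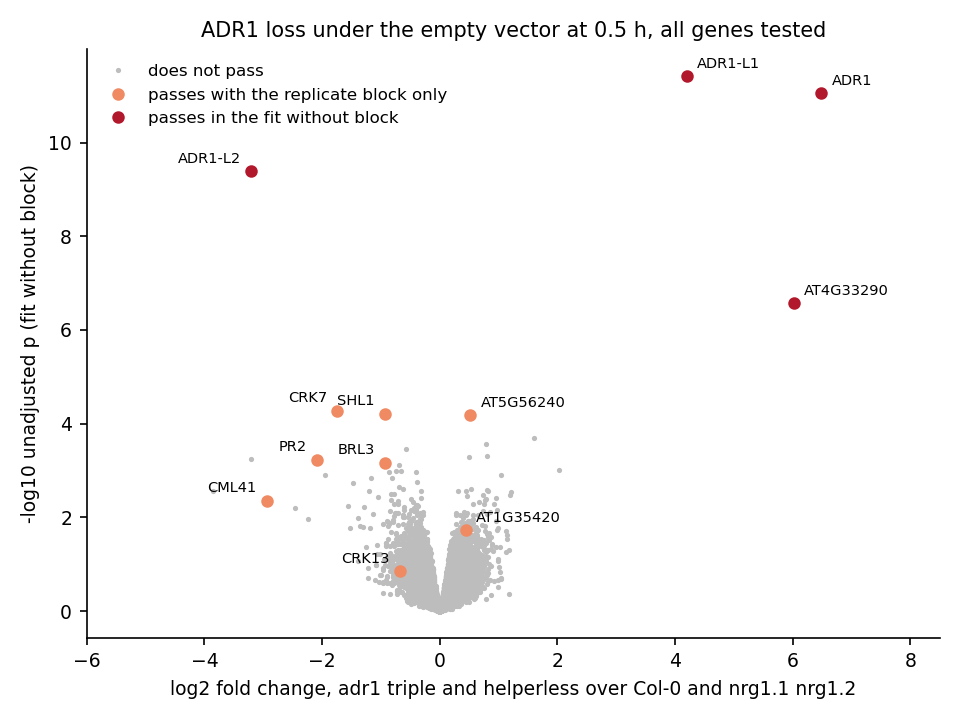
Log2 fold change for ADR1 loss under EV at 0.5 h against −log10 of the unadjusted p in the fit without block, for the 17001 genes tested. The 4 genes that pass without the block stand apart, and the 8 that the block adds lie between -2.94 and 0.52.

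PR2 (AT3G57260) fell in the leaves without the ADR1 family. It encodes a glucanase that attacks microbial cell walls and is a standard marker of salicylic acid signalling. It had 2.08, 0.33 and 0.96 CPM in adr1 triple and 2.36, 0.243 and 0.778 CPM in helperless, against 6.18, 3.19 and 6.07 CPM in Col-0 and 5.88, 3.45 and 4.25 CPM in nrg1.1 nrg1.2. These were low counts, 83 over the mutant replicates against 322 over the others, but no mutant replicate reached the lowest intact one. The change was -2.19 ± 0.26 with the block (edgeR adjusted p = 0.00368) and -2.08 ± 0.45 without it (adjusted p = 0.712). It passed under the block whichever replicate was left out (adjusted p of 0.00248 to 0.0164).

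A pair of cysteine-rich receptor-like kinases, a family of surface kinases many of which respond to pathogens and salicylic acid, fell as well. CRK7 (AT4G23150) had 1.29, 1.07 and 0.611 CPM in adr1 triple and 1.11, 0.728 and 2.57 CPM in helperless, against 3.59, 4.44 and 3.79 CPM in Col-0 and 3.20, 4.40 and 5.02 CPM in nrg1.1 nrg1.2. The groups did not overlap, and the change was -1.74 ± 0.26 (edgeR adjusted p = 0.0274 with the block, 0.16 without). It passed in only 5 of 12 blocked fits with a replicate left out (-2.07 to -1.57, highest adjusted p = 0.128). It lies among tandem relatives of close sequence, and reads shared between them could shift its counts. CRK13 (AT4G23210) had 37.3, 11.4 and 11.3 CPM in adr1 triple and 32.3, 11.2 and 13.1 CPM in helperless, against 54.6, 17.7 and 25.4 CPM in Col-0 and 51.2, 18.6 and 19.1 CPM in nrg1.1 nrg1.2. Replicate 1 was high in all 4 genotypes, so the groups overlapped and only the comparison within replicate numbers separated them (-0.71 ± 0.08, edgeR adjusted p = 0.00368 with the block, 0.999 without). It passed under the block whichever replicate was left out.

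CML41 (AT3G50770) encodes a calmodulin-like protein found at plasmodesmata, the channels between plant cells. With 11 counts over the mutant replicates against 82 over the others it was the sparsest of these genes, and replicate 2 of both adr1 triple and helperless had none. It had at most 0.496 CPM in the mutants, against 0.217 to 2.89 CPM in Col-0 and nrg1.1 nrg1.2. The change with the block was -3.02 ± 0.44 (edgeR adjusted p = 0.0212), which passed in 7 of 12 blocked fits with a replicate left out.

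The other genes on the lower side were a hormone receptor and a chromatin protein. BRL3 (AT3G13380), a brassinosteroid receptor related to BRI1, had 9.92, 20.8 and 13.8 CPM in adr1 triple and 13.0, 23.4 and 16.0 CPM in helperless, against 24.8, 36.6 and 26.0 CPM in Col-0 and 29.9, 41.2 and 25.8 CPM in nrg1.1 nrg1.2. SHL1 (AT4G39100), a chromatin reader with PHD and BAH domains that acts on flowering time, had 10.9, 10.6 and 7.59 CPM in adr1 triple and 10.8, 11.5 and 8.47 CPM in helperless, against 19.4, 22.4 and 12.9 CPM in Col-0 and 18.1, 23.9 and 17.5 CPM in nrg1.1 nrg1.2. For both genes each mutant replicate lay below each intact one. BRL3 fell by 0.95 ± 0.09 (edgeR adjusted p = 3.0e-04 with the block, 0.77 without) and SHL1 by 0.93 ± 0.09 (3.0e-04 with the block, 0.16 without), and both passed under the block whichever replicate was left out.

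On the higher side the changes were small. AT5G56240 had 26.2 to 39.4 CPM in the mutants, against 17.6 to 24.9 CPM in Col-0 and nrg1.1 nrg1.2, with no overlap and a change of 0.52 ± 0.07 (edgeR adjusted p = 0.011 with the block, 0.16 without). AT1G35420, annotated as an alpha/beta-hydrolase gene, had 23.6 to 37.9 CPM against 17.0 to 30.5 CPM, groups that overlapped (0.45 ± 0.07, edgeR adjusted p = 0.0256 with the block, 0.999 without). It passed in 4 of 12 blocked fits with a replicate left out.

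**Figure D3:**
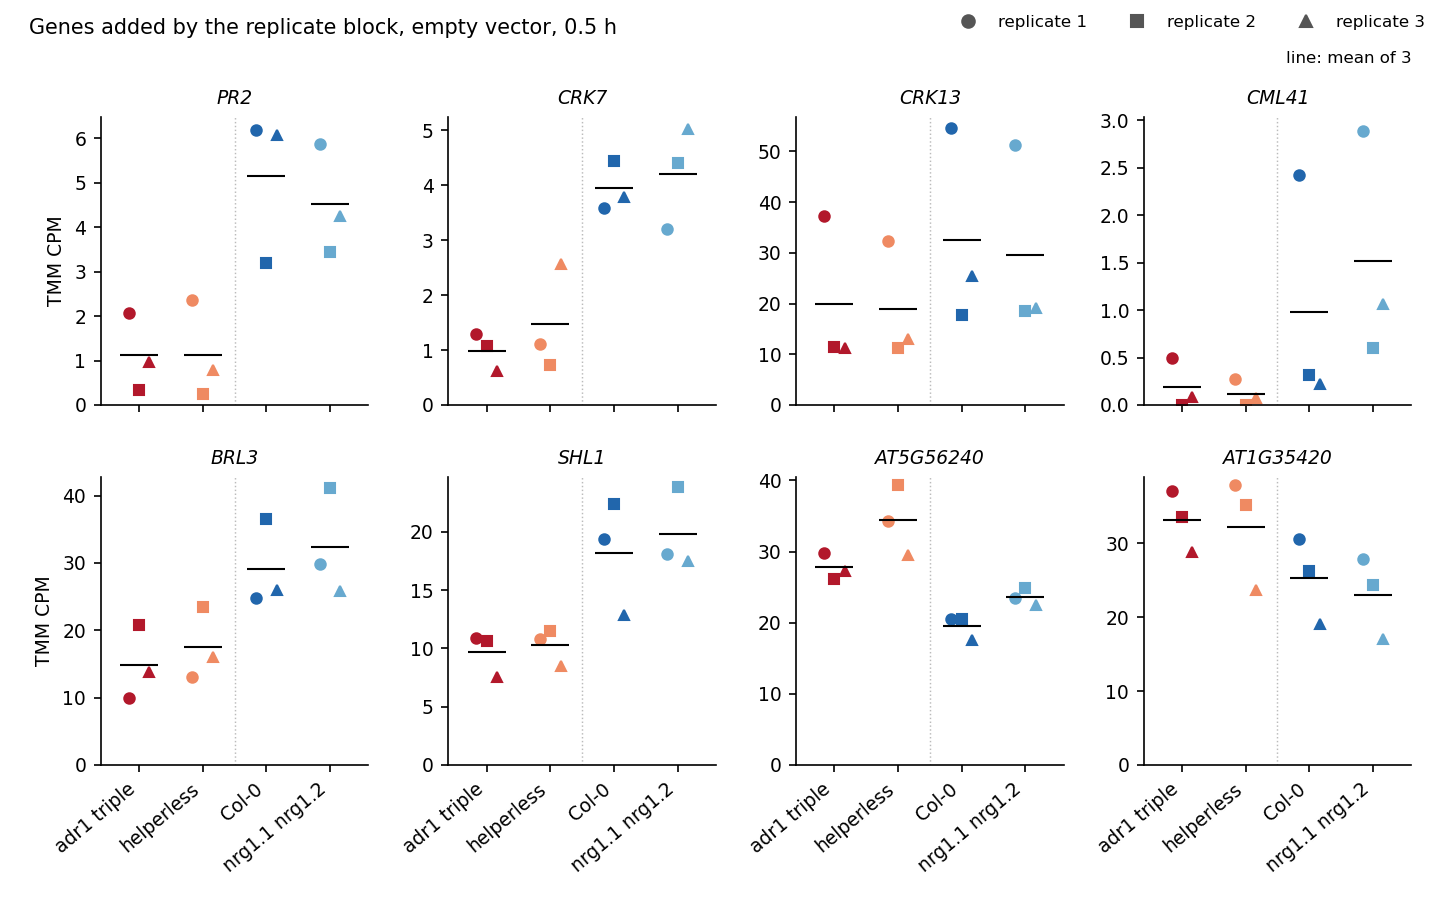
TMM CPM of the 8 genes that pass in edgeR with the replicate block and not without it, in each EV replicate at 0.5 h (linear axes, symbols give the replicate number and lines the mean of 3). Within each replicate number, adr1 triple and helperless lie below Col-0 and nrg1.1 nrg1.2 for the 6 genes on the lower side, and CRK13 shows how replicate 1 is high in all 4 genotypes.

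Genes of the salicylic acid branch leaned lower, and none passed without the block. In bulk leaf RNA, fewer cells of a type and less RNA per cell cannot be told apart. PAD4, the partner of EDS1 in the ADR1 branch, had 23.5, 68.4 and 40.2 CPM in adr1 triple and 24.6, 72.3 and 40.5 CPM in helperless, against 61.9, 60.6 and 56.9 CPM in Col-0 and 59.7, 84.3 and 62.1 CPM in nrg1.1 nrg1.2. It was lower in 5 of 6 pairs, and the groups overlapped through replicate 2 (-0.51 ± 0.27, edgeR adjusted p = 0.999). All 4 genes of the EDS1 node were below 0, EDS1 at -0.36, its close copy EDS1B at -0.62 and SAG101 at -0.22, with a median of -0.44. Reads shared between EDS1 and EDS1B could be split between them.

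ICS1, which makes the precursor of salicylic acid, had 9.72, 23.2 and 16.9 CPM in adr1 triple and 11.5, 17.1 and 15.3 CPM in helperless, against 28.4, 23.7 and 21.8 CPM in Col-0 and 27.5, 26.2 and 16.2 CPM in nrg1.1 nrg1.2. It was lower in 6 of 6 pairs (-0.62 ± 0.20, unadjusted p = 0.00971, edgeR adjusted p = 0.999, and 0.289 with the block). EDS5, which exports that precursor from the chloroplast, stood at -0.60 and SARD1, a transcription factor that activates ICS1, at -0.92. PBS3, which conjugates the precursor to glutamate, stood at -0.75, lower in 4 of 6 pairs, with -0.18 ± 0.34 in adr1 triple against Col-0 and -1.35 ± 0.35 in helperless against nrg1.1 nrg1.2 (unadjusted p of the difference 0.0331, edgeR adjusted p = 1). Of the 11 genes for synthesis and regulators, 8 were below 0 and none passed. Their median was -0.40, and 5 (45.5%) had an unadjusted p under 0.05, beside 46.9% of all genes below 0 and 3.56% with such a p. With the block it was 8 (72.7%), beside 12.2% of all genes. Such an excess was not particular to this list. With the block the share was 75% in the EDS1 node and 57.1% in cysteine-rich and wall-associated kinases. It was 46.7% in the ethylene and in the camalexin and indole glucosinolate lists, and 40.9% in early pattern-triggered genes. Lists with a lower share than all genes included photosynthesis (8.7%) and the clock (7.14%). All lists and members were chosen with earlier results of these data known. Their shares and medians beside all genes therefore describe the lists and are not a test.

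Among genes that respond to salicylic acid, 14 were listed and 10 tested, 8 of them below 0 with a median of -0.70. For loss of the NRG1 genes in the same fit, 8 of the 10 were below 0 too, with a median of -0.17. The summed level of the list overlapped between the groups, at 134 to 370 CPM in the mutants against 208 to 412 CPM. PR2 led the list for ADR1 loss, followed by WRKY54, a regulator of salicylic acid responses, at -1.19 ± 0.43. NIMIN2, which binds the salicylic acid receptor NPR1, had 7.44, 10.1 and 15.5 CPM in adr1 triple and 7.63, 6.95 and 12.4 CPM in helperless, against 19.2, 10.2 and 35.5 CPM in Col-0 and 15.5, 10.6 and 21.0 CPM in nrg1.1 nrg1.2. It was lower in 6 of 6 pairs (-0.88 ± 0.30, edgeR adjusted p = 0.999, and 0.0925 with the block). PR5, another marker, stood at 0.35 ± 0.45. The classical marker PR1 had 6 counts in the mutants against 3 in the others and was not tested, like WRKY38 (7 against 17), DLO1 (0 against 3) and BSMT1 (16 against 22). At these counts no difference in PR1 was detectable. For N-hydroxypipecolic acid, which spreads immunity through the plant, the synthesis genes ALD1 and FMO1 had 4 against 7 and 1 against 7 counts. The other members of that list were tested and stood at -0.25 ± 0.42 (SARD4) and -0.18 (UGT76B1).

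Lists of receptors and early response genes had medians closer to 0. Of 14 cysteine-rich and wall-associated kinase genes tested 13 were below 0 (median -0.24), with CRK36 at -0.92 and the wall-associated kinase WAK1 at -0.44 beside CRK7 and CRK13. Of 16 sensor NLR genes and partners 13 were below 0 (median -0.12), with the largest change in SOC3 (-0.61 ± 0.19, unadjusted p = 0.00707). RPS4, RRS1, RPS2 and RPM1, the receptors for the effectors used elsewhere in the study, lay between -0.22 and 0.10. Pattern receptors and their partners had a median of -0.19, with the flagellin receptor FLS2 at -0.26 and the co-receptor BKK1 at -0.25 ± 0.12, and 11 of 14 below 0. Early pattern-triggered genes had a median of -0.13, with 17 of 22 below 0. FRK1, their usual marker, stood at 0.06, WRKY33 at 0.02 and the kinase MKK9 at -0.48 ± 0.14. No gene of these lists passed without the block. Before infiltration 10 of 14 pattern receptors and partners were above 0 (median 0.09), and 16 of 21 early pattern-triggered genes (median 0.27). Of the sensor NLR genes and partners 11 of 16 were below 0 there (median -0.07), and of the kinases 6 of 12. With the effector strains at 0.5 h most genes of all 4 lists were below 0.

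Most hormone lists also had medians below 0. In the jasmonate list 21 of 25 genes were below 0 with a median of -0.20, and ANAC055, a transcription factor of that pathway, had 6.79 to 24 CPM in the mutants against 18.9 to 46.0 CPM (-0.82 ± 0.23, edgeR adjusted p = 0.999). For loss of the NRG1 genes in the same fit, 24 of 25 jasmonate genes were below 0, with a median of -0.29, beside 49.7% of all genes below 0. The lower jasmonate list was not seen for ADR1 loss in other samples. With the effector strains at 0.5 h, 18 of 25 genes were above 0 (median 0.06), and before infiltration (T0) 13 of 24 (median 0.06). The ethylene list had a median of -0.25 (11 of 15 below 0, ERF2 at -0.43 ± 0.13), the camalexin and indole glucosinolate list -0.24 (12 of 15 below 0, CYP83B1 at -0.51 ± 0.18) and the touch and calcium list -0.16 (8 of 9 below 0, CPK5 at -0.23 ± 0.17). The abscisic acid list lay at 0.18 (7 of 10 above 0, ABI1 at -0.25 ± 0.11) and the clock list at 0.01 (ELF3 at 0.48 ± 0.26). None of these genes passed with or without the block. At T0 all 9 touch and calcium genes tested were above 0 (median 0.40), and 9 of 12 ethylene genes (median 0.28). The camalexin and indole glucosinolate list had a median of 0.00 there and the abscisic acid list -0.15. With the effector strains 9 of 10 touch and calcium genes, 12 of 15 ethylene genes and 12 of 15 camalexin and indole glucosinolate genes were below 0, and 7 of 10 abscisic acid genes above 0.

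No photosynthesis gene or cell type marker passed with or without the block. Of 23 photosynthesis genes, several of them near-identical copies, 22 were above 0, with a median of 0.11 (PSAD1 at 0.19 ± 0.10). Their summed level was 122720 to 137566 CPM in the mutants against 110998 to 127755 CPM in Col-0 and nrg1.1 nrg1.2. All 23 were also above 0 with the effector strains (median 0.06) and at T0 (median 0.05). All 7 guard cell markers were above 0 (median 0.26, MYB60 at 0.28 ± 0.12) and summed to 39.7 to 47.0 CPM against 32.9 to 46.5 CPM. In other samples 4 of 7 were below 0 with the effector strains (median -0.04) and 5 of 7 at T0 (median -0.05). Epidermis and trichome markers summed to 393 to 869 CPM against 357 to 624 CPM, with 5 of 6 tested members above 0 (median 0.32, FDH at 0.29 ± 0.17) and the trichome gene GL1 at 0 in all 12 replicates. Vascular markers summed to 405 to 604 CPM against 355 to 663 CPM (median -0.08, SWEET12 at -0.46 ± 0.23). All 4 sums overlapped between the groups, and the part that these genes have in the lower defence genes was not tested.

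**Figure D4:**
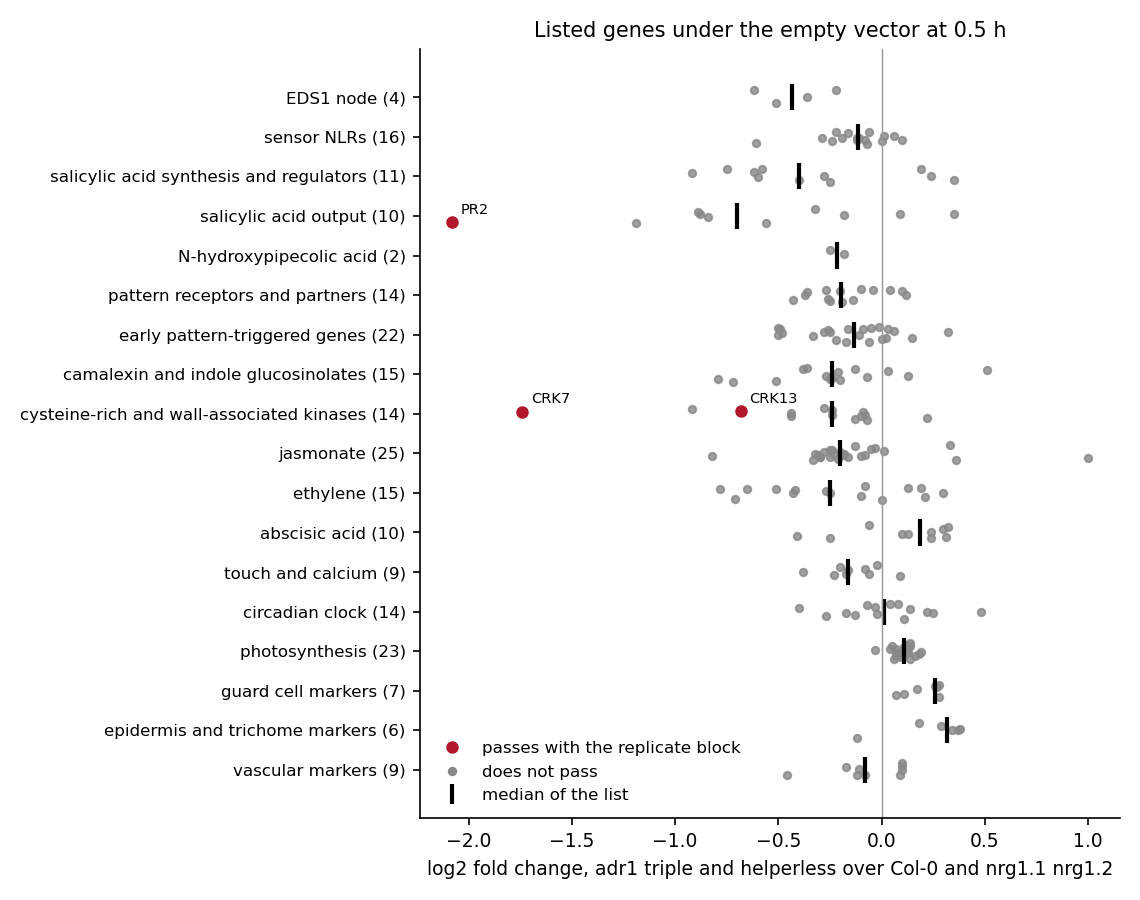
Log2 fold change for ADR1 loss under EV at 0.5 h of each tested member of 18 gene lists (number tested in brackets; black bars are medians, red points pass with the replicate block). Salicylic acid output has the lowest median at -0.70, and PR2, CRK7 and CRK13 are the listed genes that pass with the block.

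The ADR1 contrast was also taken apart by NRG1 status. In leaves with NRG1 intact, adr1 triple against Col-0, 6 genes passed (0.0353%), and in leaves without NRG1, helperless against nrg1.1 nrg1.2, 4 genes (0.0235%), the 3 family members and AT4G33290. ADR1-L2 changed by -3.22 ± 0.27 and -3.18 ± 0.26 in these comparisons and ADR1-L1 by 4.21 ± 0.24 and 4.18 ± 0.24. With the block the counts were 25 (0.147%) and 8 (0.0471%), and the 6 genes called in both were the family members, AT4G33290, BRL3 and SHL1. Of the 25 genes, 13 had the same sign in helperless against nrg1.1 nrg1.2, the 6 called in both among them. Most of the 19 called with the block only in adr1 triple against Col-0 thus did not share the sign. How many of all genes share it was not counted.

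AT1G07920 and HEI10 were called in adr1 triple against Col-0 alone. AT1G07920, annotated as an elongation factor gene of the EF-Tu family, had 60.2, 63.3 and 81.3 CPM in adr1 triple and 57.8, 59.7 and 86.4 CPM in helperless, against 10.7, 10.5 and 15.3 CPM in Col-0 and 74.3, 66.4 and 87.3 CPM in nrg1.1 nrg1.2. Col-0 was the genotype that stood apart, below all 3 mutants. The ADR1 effect differed with NRG1 status for this gene alone (0.00588% of genes), by -2.65 ± 0.31 (edgeR adjusted p = 0.0473, and 3.0e-06 with the block), and the call was lost in 10 of 12 fits with a replicate left out (highest adjusted p = 0.32). Near-identical copies of the gene exist, so its counts are uncertain. The copies AT1G07930 and AT1G07940 stood at 0.19 and -0.02 for the pooled ADR1 loss, where AT1G07920 itself stood at 1.14 ± 0.44. Their changes in adr1 triple against Col-0 are not given here. HEI10, a meiotic recombination gene, had 1.59, 1.24 and 1.40 CPM in adr1 triple against 0.251, 0.125 and 0.217 CPM in Col-0 (2.81 ± 0.35, edgeR adjusted p = 0.0196), and passed in 4 of 12 fits with a replicate left out. It had 1.18 to 1.48 CPM in helperless against 1.03 to 1.38 CPM in nrg1.1 nrg1.2.

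Loss of the NRG1 genes had no called effect in the same 12 replicates. No gene passed by edgeR (0% of genes), an unadjusted p under 0.05 was met by 379 (2.23%), and the count in DESeq2 was 0 too. PR2 stood at -0.08 ± 0.44 for NRG1 loss, CRK7 at 0.29 ± 0.28, BRL3 at 0.19 ± 0.20 and SHL1 at 0.10 ± 0.16. Whether the effects of the ADR1 and NRG1 families differ from each other was not tested.

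Before infiltration SHL1 was again lower. At T0, in 12 other replicates, 3 genes passed (0.0173%), named here after their values were seen. SHL1 had 19.3 to 21.7 CPM in adr1 triple and helperless, against 35.0 to 45.7 CPM in Col-0 and nrg1.1 nrg1.2 (-0.99 ± 0.07, edgeR adjusted p = 2.6e-04), and passed whichever replicate was left out. The cytochrome P450 gene CYP71A25 stood at 2.07 ± 0.25 (edgeR adjusted p = 0.0252) and the orphan gene QQS, which acts on starch content, at -1.80 ± 0.23 (0.0392), and they passed in 4 and 2 of 12 fits with a replicate left out. With the replicate block QQS lost its call (edgeR adjusted p = 0.0712), and the other two genes kept theirs. Under EV at 0.5 h CYP71A25 was at 1.60 ± 0.30 without overlap between the groups, and did not pass in edgeR (adjusted p = 0.423, and 0.0925 with the block) but passed in DESeq2 (adjusted p = 0.00554). QQS was at -1.48 ± 0.37 and did not pass (edgeR adjusted p = 0.999).

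The family members were closer together at T0. ADR1 had 9.19 to 208 CPM in the mutants against 7.94 to 17.5 CPM (3.01 ± 0.75, edgeR adjusted p = 1), and ADR1-L1 90.6 to 830 CPM against 67.1 to 112 CPM (2.14 ± 0.50, adjusted p = 1). ADR1-L2 had 25.3 to 35.2 CPM in adr1 triple and helperless, against 33.8 to 62.4 CPM in Col-0 and nrg1.1 nrg1.2 (-0.76 ± 0.13, edgeR adjusted p = 0.33). These ranges meet, so ADR1-L2 does not check the labels at T0. Its change under EV at 0.5 h differed from that at T0 by -2.45 ± 0.23 (interaction with time, edgeR adjusted p = 1.0e-05), the only gene of 17873 tested to pass (0.0056%). Its median in adr1 triple and helperless was 12.7 CPM under EV at 0.5 h and 27.5 CPM at T0, against 142 and 47.8 CPM in Col-0 and nrg1.1 nrg1.2. T0 leaves were not infiltrated, so bacterium, infiltration and time cannot be told apart in this difference. PR2 at T0 was at -2.01 ± 0.85, CML41 at -3.40 ± 0.81, and BRL3 and CRK13 at -0.21 ± 0.17 and 0.01 ± 0.32, none of which passed. The interaction with time did not pass for any of these 4 genes.

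Leaves that received an effector at 0.5 h gave a second, larger set of samples. These were 36 replicates of the same 4 genotypes with AvrRps4, AvrRpt2 or AvrRpm1, none of which enters the EV comparison, and 67 genes passed for ADR1 loss (0.383%), 15 higher (0.0858%) and 52 lower (0.297%). ADR1-L2 had 10.0 to 51.6 CPM in adr1 triple and helperless there, against 106 to 192 CPM in Col-0 and nrg1.1 nrg1.2, with no overlap. Apart from the 3 family members, AT4G33290 and AT4G33280 these were 62 genes, of which 59 were tested under EV. All 59 had the same sign under EV, 48 lower and 11 higher, where 69.7% of the 16943 genes tested in both had the same sign. These signs are of the pooled change and did not all hold at both NRG1 states. AT1G07920 stood at 2.49 in adr1 triple against Col-0 and at -0.16 in helperless against nrg1.1 nrg1.2. In the same comparisons MRD1 stood at 5.87 and -0.20, and EXT3 at 0.01 and -1.48. How many of the 59 kept their sign in both was not counted. An unadjusted p under 0.05 under EV was met by 38 of the 59 (64.4%), beside 3.56% of all genes, and none in the opposite direction. With the block it was 45 of the 59 (76.3%), beside 12.2%. Since these genes were chosen for passing with the effector strains, the sizes of their changes in both sets are not compared. Of the 59, 5 passed under EV with the block: PR2, CRK7, CML41, BRL3 and SHL1. Each genotype had the same library letters here, under EV and at T0. In what these sets share, ADR1 loss and other differences between the lines or letters cannot be told apart.

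PR2 in these leaves had 0 to 1.73 CPM in adr1 triple and helperless, with a median of 0.7, against 0.928 to 10.0 CPM with a median of 3.18 in Col-0 and nrg1.1 nrg1.2 (-2.61 ± 0.35, edgeR adjusted p = 2.4e-05, n = 18 against 18). CRK7 stood at -2.07 ± 0.29, CML41 at -3.38 ± 0.48 and SHL1 at -1.07 ± 0.10. Listed genes of the salicylic acid branch that passed here but not under EV were EDS1B (-0.93 ± 0.20), PBS3 (-1.16 ± 0.24) and SARD1 (-0.91 ± 0.19). CRK36, CRK6 and WAK1 stood at -1.70, -0.78 and -0.92, and passed as well. Under EV, EDS1B, PBS3 and SARD1 were at -0.62, -0.75 and -0.92 and CRK6 at -0.07. CRK37 and CRK38, further kinases of that family, changed by -3.77 ± 0.51 and -4.28 ± 0.51 with effectors and had 2 counts against 42 and 7 against 53 under EV, below the filter on low counts. Whether these changes differ between the strains and EV was not tested.

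Among the 15 genes on the higher side with effectors were MAF5, MAF4 and FLC, which encode related repressors of flowering. MAF5 rose by 1.58 ± 0.30, MAF4 by 0.83 ± 0.17 and FLC by 0.79 ± 0.17 (edgeR adjusted p = 0.00521, 0.0122 and 0.0213). They were named after their values were seen, and the related genes MAF1 and MAF3 stood at -0.02 ± 0.05 and 0.06 ± 0.10 and did not pass. Under EV, MAF5 had 3.08, 5.85 and 4.89 CPM in adr1 triple and 9.72, 8.65 and 10.8 CPM in helperless, against 3.01, 1.56 and 1.95 CPM in Col-0 and 1.86, 0.0863 and 1.64 CPM in nrg1.1 nrg1.2. The groups did not overlap, and the change of 2.02 ± 0.47 did not pass (edgeR adjusted p = 0.861, and 0.198 with the block), but it passed in DESeq2 (adjusted p = 0.0223) and with all 52 groups in 1 model (edgeR adjusted p = 0.0151). MAF4 and MAF5 are neighbouring copies, so reads could be split between them. Of the 62 genes, 54 were tested at T0. There 51 had the same sign, and the share of all genes with the same sign in both sets was not computed. Among the 54, 16 had the same sign with an unadjusted p under 0.05, a p that 1.13% of all genes tested at T0 had. Salicylic acid output had a median of 0.02 at T0, with 4 of 9 tested genes below 0. Synthesis and regulators had a median of -0.01, with 6 of 11 below 0.

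**Figure D5:**
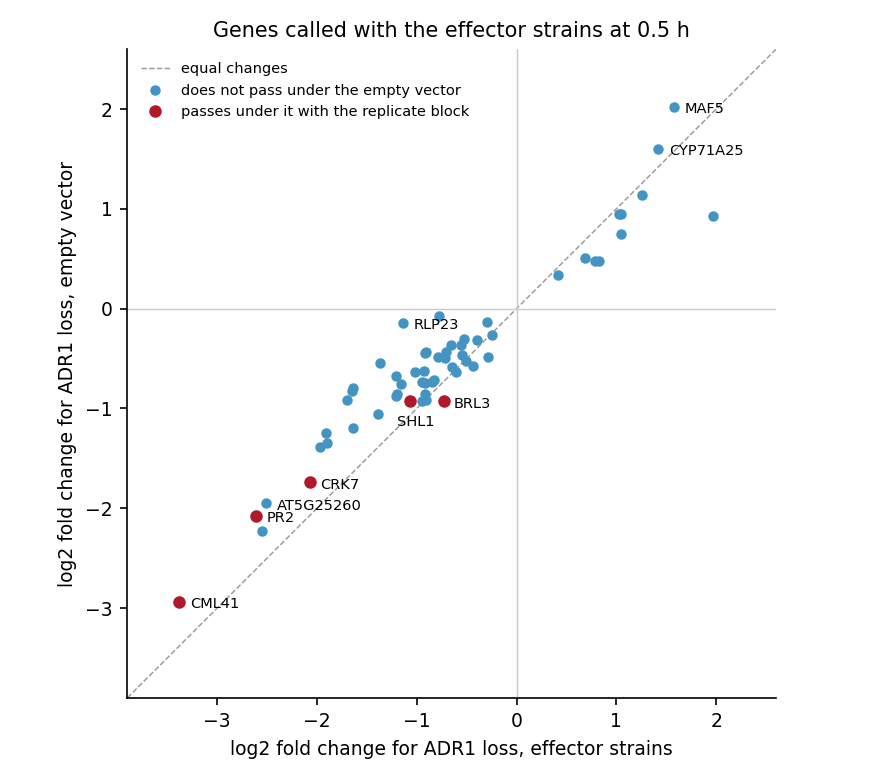
Log2 fold change for ADR1 loss with the effector strains (horizontal axis) and under EV (vertical axis) at 0.5 h, for the 59 genes called with the effector strains and tested under EV, without the mutated family and its called neighbours. All 59 lie on the same side of 0 in both sets of samples. They were chosen by their values on the horizontal axis, so their distance from the dashed line of equal changes is not read.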

How the data were processed

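Gene counts were deposited by the authors and are not normalised. Per the submitters' processing notes, reads (50 bases, single-end, per the labels' protocols) were checked with FastQC 0.11.7, trimmed with Trimmomatic 0.36, aligned to TAIR10 with HISAT2 2.1.0 and counted with featureCounts from Subread. The strand setting of the counting is not given in the sources used here. The table holds 25320 genes, of which 24966 matched a TAIR10.1 annotation used for names and neighbours only.

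Libraries with the same group and replicate number were summed, which gave 3 replicates in each of 52 groups. The labels do not say what distinguishes such libraries, and the pairs of libraries differed by more than counting error. Counts were filtered by expression within groups, scaled by TMM and put through the robust quasi-likelihood F test of edgeR 4.0.16 (R 4.3.3) with NRG1 status as a covariate, strain as a further one for effector strains. Arm comparisons and interactions used a model of the group means, or ADR1 status by time. Only samples of the same set (EV at 0.5 h, T0, both of these, or effector strains) entered a fit. Both arm comparisons were fitted on all EV replicates at 0.5 h, which include the genotypes not compared.

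The replicate numbers were taken to pair samples under EV at 0.5 h and at T0, because every pair of samples with the same number was correlated above 0.1 (0.41 to 0.7 and 0.45 to 0.66), and 12 of 12 samples correlated best with their own number. Named genes were the 5 helper genes, in each of 19 lists (251 genes) the passing members with the largest change or else the 1 with the smallest p, and the 10 highest and 10 lowest passing genes without overlap. Members and lists were chosen with earlier results of these data known. Other genes were named after their values were seen. DESeq2 1.42.0, RLE factors, no filter, a minimum change, unsummed libraries, all 52 groups in 1 model, the block and leaving out each replicate were the alternatives.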

Additional observations from a re-analysis of the deposited data

Results flagged for a closer look

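The elongation factor gene AT1G07920 was singled out because its ADR1 effect under EV at 0.5 h differed with NRG1 status (-2.65 ± 0.31, edgeR adjusted p = 0.0473). In adr1 triple against Col-0 it rose by 2.49 ± 0.23, and in helperless against nrg1.1 nrg1.2 it stood at -0.16 ± 0.21. Col-0 also had the lowest level at T0, at 16.5 to 18.3 CPM, where adr1 triple had 91.4 to 135 CPM, helperless 99.4 to 128 CPM and nrg1.1 nrg1.2 89.5 to 127 CPM. With the effector strains, Col-0 had 9.12 to 17.2 CPM in 9 replicates and the mutants 57.0 to 99.6 CPM. Near-identical copies make its counts uncertain.

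ADR1-L2 was singled out because its ADR1 effect differed between EV at 0.5 h and T0, by -2.45 ± 0.23 (edgeR adjusted p = 1.0e-05). The difference passed in 24 of 24 fits with a replicate left out, at -2.57 to -2.37.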

How the results depend on the processing

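For ADR1 loss under EV at 0.5 h the count of 4 genes was 15 in DESeq2, 7 with all 52 groups in 1 model, 29 with libraries unsummed and 12 with the replicate block, and the same 4 genes were among them each time. It stayed at 4 with RLE factors, without the filter and with a minimum change, and was 4 to 6 with a replicate left out. Under the block it was 8 to 59 with a replicate left out, an alternative chosen after seeing the data, as were the fits of single strains. For NRG1 loss the count of 0 was 2 with all groups in 1 model and 0 to 1 with a replicate left out. The interaction with NRG1 status gave 0 to 1 with a replicate left out. For adr1 triple against Col-0 the count of 6 was 11 unsummed, 25 with the replicate block and 4 to 6 with a replicate left out. For helperless against nrg1.1 nrg1.2 the count of 4 was 7 in DESeq2, 9 unsummed, 8 with the replicate block and 3 to 4 with a replicate left out. At T0 the count of 3 was 7 in DESeq2, 5 with all groups in 1 model, 7 unsummed, 2 with the replicate block and 1 to 3 with a replicate left out. The interaction with time gave 2 genes in DESeq2, 3 unsummed, and 1 with each replicate left out.

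With the effector strains the count of 67 was 36 with a minimum change, 105 in DESeq2, 171 unsummed, 97 with the replicate block and 50 to 78 with a replicate left out, and 4, 5 and 3 for AvrRps4, AvrRpt2 and AvrRpm1 fitted alone, with fewer samples each. Replicate numbers did not pair those samples by the criterion used (correlations of -0.38 to 0.76, with 33 of 36 samples correlating best with their own number). PR2 passed in DESeq2 (adjusted p = 0.00923), unsummed (0.00885) and with the block (0.00368). SARD4 stood at -0.57 to 0.06 with a replicate left out, above 0 only without nrg1.1 nrg1.2 replicate 3, and at -0.25 with all replicates. Except as stated, the cause of these differences was not tested. Unsummed fits count both libraries of a replicate as samples. Depth limits the genes with under 100 counts a group, among them PR1, CML41 and CRK37.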
